A study of Homo sapiens with 10 samples.

Results

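The effect of raised TRAM2 on the transcriptome was examined in MCF10A cells that carried a TRAM2-overexpression vector (MCF10A-TRAM2) and in MCF10A cells that carried an empty vector (control). Libraries were chosen by their titles, which gave 4 MCF10A-TRAM2 libraries (A to D) and 4 control libraries (A to D), 8 of the 10 mRNA libraries of the series. MCF10A is a non-tumorigenic human mammary epithelial line, grown here in DMEM/F12 medium with horse serum, EGF, insulin and hydrocortisone. Both groups had been transduced and selected with antibiotic, and RNA was taken before the cultures were confluent. The other 2 libraries, of cells with activated YAP (MCF10A-YAP5SA), are outside the comparison. The study's methods place the TRAM2 reading frame in a lentiviral vector (pCDH) behind the CMV promoter, a strong viral promoter, with puromycin resistance. Whether A to D were separate transductions is not stated there.

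TRAM2 is a membrane protein of the endoplasmic reticulum (ER). It is related to TRAM1, which helps signal-peptide-bearing chains to enter the ER through the Sec61 translocon, and it has been linked to the synthesis of type I collagen. It is not a transcription factor. In an epithelial-to-mesenchymal transition (EMT) epithelial cells lose junction and differentiation genes and gain matrix, protease and cytoskeletal genes such as fibronectin and vimentin. The comparison asks how far the mRNA profile of MCF10A cells moves when TRAM2 alone is raised.

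Estimated counts per library ran from 8489854 to 16314438. The deposited data name 2 sequencing runs, with libraries A and B of each group in the lower-numbered one (run 1) and C and D in the other (run 2). Control A and C differed by no more than sampling noise, as did control B and D (chi-square per degree of freedom 1.03 for both, p = 0.156 and 0.222, over genes with whole counts in every library), and each pair was summed and counted as 1 sample. Over the larger set of genes whole in that pair alone, B and D gave 1.04 with p = 0.0408 by the chi-square test. The other control pairs stood between 1.16 and 1.25. From here on n is 2 for control (control 1 is A and C, control 2 is B and D) and 4 for MCF10A-TRAM2. The MCF10A-TRAM2 libraries lay farther apart, at 2 to 5.9 over genes with whole counts in every library. Library B stood alone on the first principal component of log2 CPM (37.5, the other samples between -18.5 and 7.9). Levels are given in CPM, counts that edgeR scales to a common library size. Nothing in the labels says that the libraries came from separate cultures, so p-values measure the spread between these samples, which may be technical. The model holds a term for the run, set by the MCF10A-TRAM2 libraries. P-values, SEs and intervals thus leave out the difference of MCF10A-TRAM2 A and B from C and D. All 12 markers of basal MCF10A-type cells, such as KRT5, KRT14 and TP63, were tested, with a summed level of 7023 and 7035 CPM in the control samples and 6232 to 7647 CPM in MCF10A-TRAM2.

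TRAM2 itself checks the labels. The gene lies on chromosome 6 of GRCh37 from 52362206 to 52441858, on the minus strand. It stood at 28.8 and 29.3 CPM in the control samples and at 397, 621, 254 and 467 CPM in MCF10A-TRAM2 A to D. Every MCF10A-TRAM2 library was far above both control samples, with B the highest and C the lowest. The log2 fold change was 3.88 (standard error, SE, 0.47, 95% interval 2.51 to 5.25), and it was 4.16 against the control libraries of run 1 and 3.49 against those of run 2. With this spread among the overexpressing libraries its adjusted p was 0.136 in edgeR's quasi-likelihood test, so that TRAM2 was not among the called genes. Only 1 TRAM2 transcript, of 7047 bases, was quantified, and reads of the vector cannot be told apart from those of the cell's own gene.

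Few other genes were called. Of 15478 genes tested, 22 rose (0.142%) and 13 fell (0.084%) at an adjusted p under 0.05, and 21 of these 35 (0.136% of the genes tested) changed by more than 0.5 on the log2 scale. The genes that rose included matrix, protease and receptor genes (LAMA4, FN1, ADAM12, TIMP1, LRP1). The genes that fell included secreted epithelial proteins (LCN2, KLK5, KLK10), an aldehyde dehydrogenase (ALDH1A3) and the 2 chains of an amino acid transporter (SLC7A5 and SLC3A2). The changes were small: apart from genes of few counts or several copies, the largest rise was 0.80 and the largest fall 0.67 on the log2 scale. The median over all genes was -0.003, with quartiles of -0.097 and 0.106. Without a threshold on the adjusted p, 918 genes were higher (5.93%) and 1048 lower (6.77%) at an unadjusted p under 0.05, 1966 in all. The number of called genes hung on the settings: it was 8 without the run number in the model, 5 without control 1, 2 without control 2, 8 without MCF10A-TRAM2 C and 6 without D. It was 1852 without A and 565 without B, and 30 and 106 when the run term was dropped as well. In each fit without A, B, C or D that keeps the run term, the remaining library of that run sets the term by itself.

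The steadiest changes were falls of LCN2 and ALDH1A3. LCN2 encodes lipocalin-2, a secreted iron-siderophore binder of epithelial defence (chromosome 9 of GRCh37, 130911350 to 130915732). Its level was 54.8 and 59.0 CPM in the control samples and 34.4, 35.2, 35.2 and 38.0 CPM in MCF10A-TRAM2 A to D. The groups were well apart, and the 4 MCF10A-TRAM2 libraries were nearly level. The log2 fold change was -0.67 (SE 0.06, adjusted p = 0.00145), with -0.67 in each run. ALDH1A3, an aldehyde dehydrogenase that makes retinoic acid from retinal (chromosome 15, 101417919 to 101456831), stood at 338 and 360 CPM in control and at 231, 226, 242 and 230 CPM in MCF10A-TRAM2. Its log2 fold change was -0.59 (SE 0.05, adjusted p = 0.00145), with -0.59 in run 1 and -0.58 in run 2. Both were called in 19 of 20 alternative settings, the exception being the fit without control 2 (adjusted p = 0.0555 for both). ADAM12 was called in 16 of the 20, AKR1C1 in 14, KLK5 in 13, KLK10 and LAMA4 in 12, FN1 in 11, SLC7A5 and SLC3A2 in 10 and TIMP1 in 9. In bulk RNA such as this, fewer cells that express a gene and less RNA of it per cell cannot be told apart.

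Kallikrein-related peptidases, secreted serine proteases of the chromosome 19 cluster that act in shedding and barrier turnover of stratified epithelium, were lower as well. KLK5 (51446559 to 51456349) stood at 228 and 253 CPM in control and at 149, 141, 172 and 188 CPM in MCF10A-TRAM2, a log2 fold change of -0.57 (adjusted p = 0.00308). KLK10 (51515995 to 51523431) stood at 91.8 and 100 CPM in control and at 50.04, 44.6, 74.4 and 81.6 CPM in MCF10A-TRAM2, a log2 fold change of -0.66 (adjusted p = 0.00238). For KLK10 the libraries of run 1 were much lower than those of run 2, though all 4 were under both control samples. Of 20 cornification genes, which build the outer layers of stratified epithelium, 16 were tested. KLK5 and KLK10 were the 2 that fell, where 0.084% of all genes did. At an unadjusted p under 0.05, 7 were lower and 1 was higher, where 6.77% and 5.93% of all genes were. KLK7 stood at 53.8 and 59.7 CPM against 32.3 to 47.7 CPM, and SPRR1B, a cornified envelope precursor, at 9.7 and 9.6 CPM against 5.1 to 8.7 CPM. The 1 higher at that cutoff was IVL (involucrin, the envelope's scaffold), at 23.0 and 22.1 CPM in control and at 37.9, 45.8, 22.1 and 21.4 CPM in MCF10A-TRAM2 A to D. It was high only in the libraries of run 1. Of the 16, 13 had a log2 fold change below 0 and 3 above it, where 50.8% of all genes were below 0. KLK7, SPRR1B and IVL were picked after their values were seen, as was any uncalled list member named from here on that is not among the 2 most abundant of its list or the genes the study names. The median of the list was -0.29 (-0.245 in run 1 and -0.21 in run 2). By library the list's mean was -0.311, 0.014, -0.305 and -0.343 in A to D, with B apart from the other libraries.

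**Figure D1:**
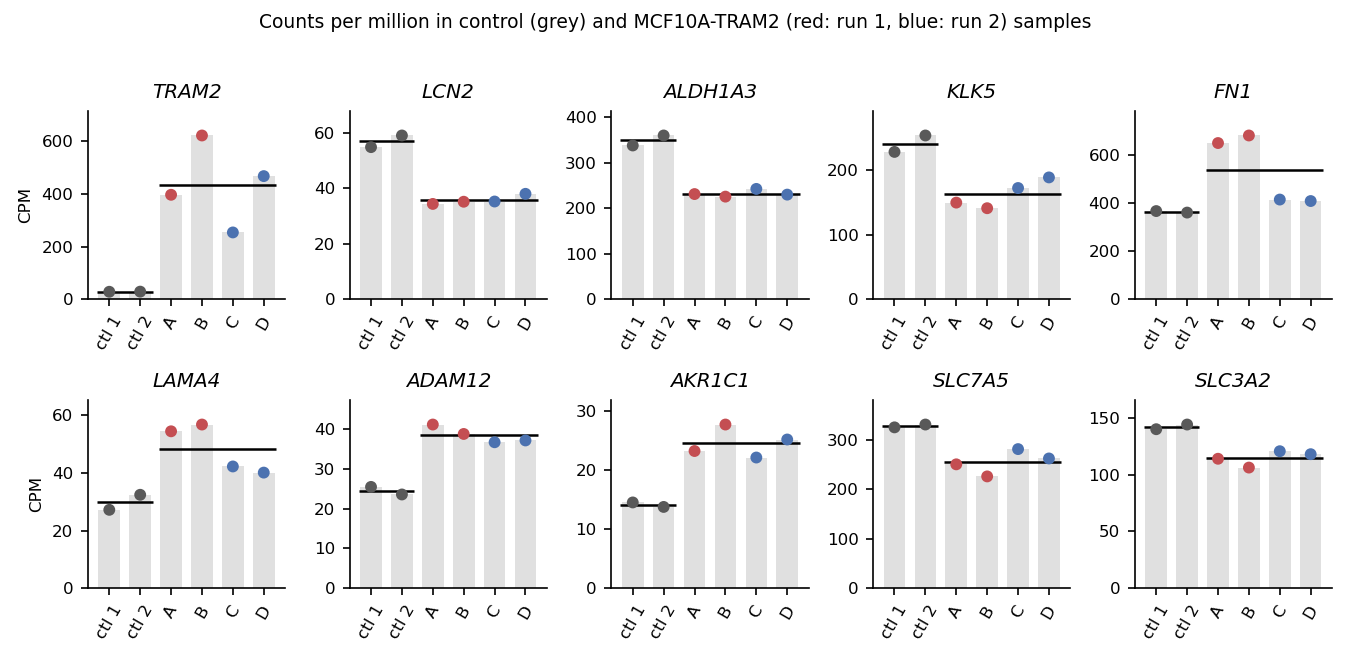
CPM of 10 genes in the 2 control samples (grey points) and in MCF10A-TRAM2 A and B (red, run 1) and C and D (blue, run 2), each axis starting at 0, with bars and points for single samples and black lines for group means. TRAM2 was above control in every library, LCN2 and ALDH1A3 were lower to nearly the same extent in all 4, and FN1 and LAMA4 were highest in the libraries of run 1.

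SLC7A5 (LAT1) and SLC3A2 (CD98 heavy chain) pair at the cell surface as the exchanger that brings in leucine and other large neutral amino acids. The level of SLC7A5 was 325 and 331 CPM in control and 250, 226, 281 and 262 CPM in MCF10A-TRAM2, a change of -0.37 on the log2 scale (SE 0.05, adjusted p = 0.022). SLC3A2 stood at 140 and 144 CPM in control and at 114, 106, 121 and 118 CPM in MCF10A-TRAM2, a change of -0.31 on the log2 scale (SE 0.05, adjusted p = 0.0263). For both genes B was the lowest library and C the highest. The other protein-coding genes of at least 5 CPM that fell were TNFRSF12A, the receptor of the cytokine TWEAK (log2 fold change -0.31), POLR3K, a subunit of RNA polymerase III (-0.38), GJB2, the gap junction protein connexin 26 (-0.43), and P3H2, a collagen prolyl 3-hydroxylase (-0.43). P3H2 stood at 138 and 143 CPM in control and at 88.3, 107, 112 and 110 CPM in MCF10A-TRAM2. The remaining 3 genes that fell held few counts: AC008878.3, which is annotated as protein-coding, and HSPE1P2 had 143 and 46 counts in control and 0 in every MCF10A-TRAM2 library, at least 71.1-fold and 22.9-fold lower when the group's floor is taken as 3 counts. Their control libraries did not hold together, also within the pairs that differed by no more than sampling noise over genes with whole counts. HSPE1P2 was listed at 0, 0, 1.9 and 3.2 CPM for control A to D, and AC008878.3 was at 0 in control B alone and at 3.9 to 5.3 CPM in the other 3. AC022968.1 was listed at 3.3 and 2.2 CPM for the control samples and at 0, 0, 1.9 and 1.3 CPM for MCF10A-TRAM2 A to D, with control D at 0 and its partner B at 4.0 CPM. Reads of such genes may be shared with other copies, and their levels are uncertain.

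Several of the genes that rose encode proteins of the extracellular matrix or its proteases. LAMA4, the laminin alpha 4 chain of mesenchymal and vascular basement membranes (chromosome 6, 112429134 to 112576141), stood at 27.2 and 32.4 CPM in control and at 54.4, 56.8, 42.2 and 40.1 CPM in MCF10A-TRAM2. Its log2 fold change was 0.69 (SE 0.075, adjusted p = 0.00406). FN1, fibronectin (chromosome 2, 216225163 to 216300796), stood at 366 and 360 CPM in control and at 648, 679, 414 and 407 CPM in MCF10A-TRAM2, a change of 0.52 on the log2 scale (SE 0.05, adjusted p = 0.00145). All 4 libraries were above control, but the rise was 0.87 in run 1 and 0.185 in run 2. ADAM12, a membrane metalloprotease and disintegrin, differed little between the runs (0.70 and 0.60), at 25.4 and 23.5 CPM in control and 41.0, 38.7, 36.59 and 37.05 CPM in MCF10A-TRAM2 (log2 fold change 0.64, adjusted p = 0.00308). TIMP1, an inhibitor of matrix metalloproteases, stood at 57.9 and 57.7 CPM in control and at 93.9, 111, 67.4 and 71.4 CPM in MCF10A-TRAM2 (log2 fold change 0.55, adjusted p = 0.0119).

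The other genes that rose are given by role. Of secreted matrix or protease proteins, ADAMTSL4, a fibrillin-binding protein, rose by 0.61 on the log2 scale, HTRA1, a secreted serine protease, by 0.43, LOXL2, a lysyl oxidase that cross-links collagen, by 0.40, and SPOCK1, a matrix proteoglycan, by 0.39. Of surface receptors, LRP1, an endocytic receptor of matrix and protease complexes, rose by 0.80, S1PR3, a sphingosine 1-phosphate receptor, by 0.59, ANTXR2 and ANTXR1, receptors that bind collagen and laminin, by 0.51 and 0.40. LRP1 stood at 8.7 and 7.2 CPM in control and at 17.1, 16.6, 11.3 and 11.7 CPM in MCF10A-TRAM2. SEMA3A, a secreted guidance cue, rose by 0.56, SFRP1, a secreted WNT antagonist, by 0.53, NAV2, a neuron navigator protein, by 0.49, CASK, a scaffold kinase, by 0.41, and the scaffold of a ubiquitin ligase, CUL4B, and the carboxypeptidase CPVL by 0.34 each. The rise of NAV2 was 0.37 in run 1 and 0.63 in run 2. AKR1C1, an aldo-keto reductase that reduces steroids and lipid aldehydes, stood at 14.5 and 13.8 CPM in control and at 23.2, 27.7, 22.1 and 25.2 CPM in MCF10A-TRAM2 (log2 fold change 0.79, adjusted p = 0.00925). Its near-identical neighbours AKR1C2 and AKR1C3, which can share its reads, had log2 fold changes of 0.57 and 0.44 and were not called (adjusted p = 0.16 and 0.0622). NPIPB13 and GTF2IP4, called at 1.70 and 1.47, belong to multi-copy families, and their counts (26 to 219 in a sample) are uncertain for the same reason, as is the call of AC240565.2, at 0.1 and 0 CPM in control and 0.8 to 3.5 CPM in MCF10A-TRAM2. NPIPB13 was at 0 in control C and D and at 2.5 and 2.6 CPM in A and B.

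**Figure D2:**
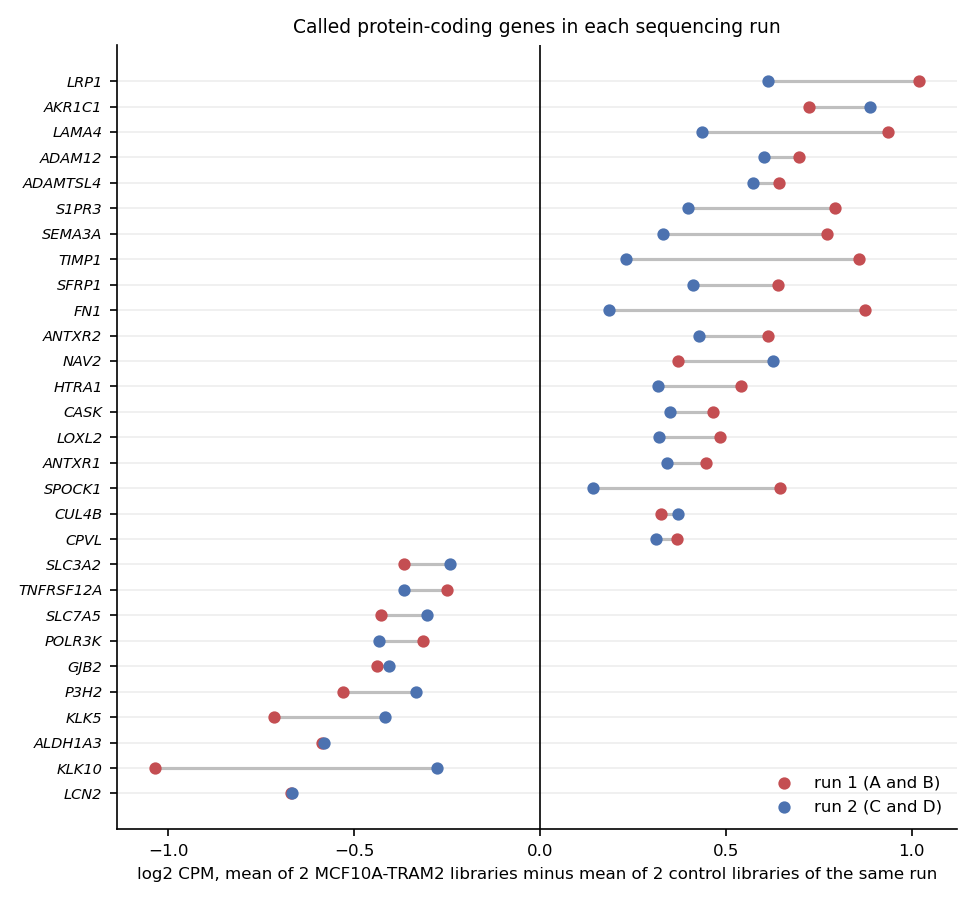
Difference of mean log2 CPM between 2 MCF10A-TRAM2 and 2 control libraries of the same sequencing run (x axis) for the 29 called protein-coding genes with at least 5 CPM in the higher group (y axis), with red points for run 1 and blue points for run 2. The 19 genes that rose ran from 0.33 to 1.02 in run 1 and from 0.14 to 0.89 in run 2, and the 10 that fell from -1.035 to -0.25 and from -0.67 to -0.24. The controls of both runs are not independent of each other, since their libraries pair up within sampling noise over genes with whole counts.

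The MCF10A-TRAM2 libraries of the runs differed among themselves. The run term, the difference of C and D from A and B, was called for 3 genes (0.0194%): FN1 (-0.69 on the log2 scale, adjusted p = 0.000873), KLK10 (0.72, adjusted p = 0.0121) and IVL (-0.94, adjusted p = 0.0103). The rise of FN1, the fall of KLK10 and the level of IVL were thus each farther from control in A and B. The summed control samples do not enter this term. Taken singly, with CPM scaled over all 10 libraries, the control libraries were level across the runs for these genes. FN1 stood at 363 and 351 CPM in control A and B (run 1) and at 356 and 355 CPM in control C and D (run 2). KLK10 stood at 91.5 and 100 CPM against 89.1 and 97.1 CPM, and IVL at 23.0 and 22.1 CPM against 22.3 and 21.2 CPM. The expression of the 35 called genes did not overlap between the 2 control and 4 MCF10A-TRAM2 samples, where 10.7% of all genes tested were higher and 12.4% lower without overlap. The calls were made on these same samples, so this lends them no separate support. It holds for the summed control samples and not for every single library. AC022968.1 was at 0 in control D and at 1.9 CPM in MCF10A-TRAM2 C.

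Mesenchymal genes stood above control as a group, more so in run 1. Of 25 genes listed, 20 were tested and FN1 was the 1 that rose, where 0.142% of all genes did. At an unadjusted p under 0.05, 9 were higher and 1 was lower, against 5.93% and 6.77% of all genes. In all 4 libraries 9 were above both control samples, where 10.7% of all genes were. The median log2 fold change was 0.25 (0.377 in run 1 and 0.11 in run 2), and without MCF10A-TRAM2 B and the run term it was 0.12. VIM, the intermediate filament vimentin, stood at 10.6 and 12.1 CPM in control and at 23.2, 18.74, 11.99 and 14.997 CPM in MCF10A-TRAM2 A to D. Library C lay between the control samples, and the log2 fold change of 0.57 (SE 0.13) was not called (adjusted p = 0.11), with 1.01 in run 1 and 0.12 in run 2. FBN1 (fibrillin 1) had a log2 fold change of 0.54, COL6A1 0.55 and TNC (tenascin C) 0.30, none of them called, while POSTN (periostin) was lower at -0.47 (adjusted p = 0.124).

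Of 10 EMT transcription factors 9 were tested and none was called. SNAI2 (Slug) stood at 117 and 120 CPM in control and at 131, 166, 135 and 136 CPM in MCF10A-TRAM2, with a log2 fold change of 0.26 (adjusted p = 0.296). ZEB1 and ZEB2, repressors of epithelial genes, had log2 fold changes of 0.44 and 0.43. SNAI1 (Snail) and TCF4 went the other way, at -0.40 and -0.29, and none of these was called. The median of the 9 was 0.26 (0.24 and 0.19 in the runs), and 6 were above control in all 4 libraries, where 10.7% of all genes were. Of 30 epithelial genes 28 were tested with none called and a median of -0.02. CDH1 (E-cadherin) was among them, with a log2 fold change of 0.095 and an adjusted p of 0.533, and the 3 lowest p-values belonged to ESRP2, an epithelial splicing regulator (-0.28), CLDN7, a tight junction claudin (-0.30), and SPINT2, a protease inhibitor (-0.19).

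In the lists of matrix genes, calls can be read against the 0.142% of all genes that rose and the 0.084% that fell. Of 20 collagen chain genes 15 were tested and none was called, with a median of 0.18 (0.167 and 0.175 in the runs). At an unadjusted p under 0.05, 6 were higher and 1 was lower, where 5.93% and 6.77% of all genes were. COL6A3, a chain of the microfibrillar collagen VI, stood at 44.1 and 43.0 CPM in control and at 61.8, 82.9, 62.5 and 58.6 CPM in MCF10A-TRAM2 (log2 fold change 0.60, adjusted p = 0.121). COL4A6, a basement membrane chain, stood at 38.0 and 37.6 CPM in control and at 47.0, 47.2, 45.6 and 46.5 CPM in MCF10A-TRAM2 (0.30, adjusted p = 0.0731). In both, all 4 libraries were above control. COL1A1, whose protein has been tied to TRAM2, was low in both groups, at 2.9 and 3.8 CPM in control and 2.6 to 3.3 CPM in MCF10A-TRAM2 (-0.10, adjusted p = 0.879). Of 29 matrix glycoproteins 18 were tested, SPOCK1 rose, and the median was 0.18. In that list THBS1 (thrombospondin 1), an inhibitor of vessel growth, stood at 2986 and 3027 CPM in control and 2330 to 2539 CPM in MCF10A-TRAM2 (-0.30, adjusted p = 0.0798). Of 26 metalloproteases and inhibitors 18 were tested, and ADAM12, TIMP1 and ADAMTSL4 rose. Within that list MMP7, an epithelial metalloprotease, stood at 5.2 and 5.0 CPM in control and at 3.0, 1.7, 2.2 and 1.7 CPM in MCF10A-TRAM2 (-1.265, adjusted p = 0.0691). Of 24 collagen-modifying enzymes 20 were tested, LOXL2 rose, P3H2 fell, and the median was 0.03. LAMA4 was the 1 call among 13 tested of 15 basement membrane genes (median 0.04), and none was called among 12 tested of 14 integrins (median 0.08).

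Among the lists with tested members, those with the highest share of members below 0 were genes of DNA replication (S phase) and of ribosome biogenesis, neither with a called member. S phase genes encode the helicase, polymerase clamp and precursor enzymes of DNA replication and are activated by E2F factors. All 30 were tested, and 29 had a log2 fold change below 0, against 50.8% of all genes. In the runs, which share control libraries, 28 and 27 of the 30 were below 0, against 49.3% and 48.9% of all genes. At an unadjusted p under 0.05, 15 were lower and 0 were higher, where 6.77% and 5.93% of all genes were, and 19 were below both control samples in all 4 libraries, where 12.4% of all genes were. The median was -0.12, a level lower by 7.9%, with -0.12 in each run. The list's mean in MCF10A-TRAM2 A to D was -0.085, -0.179, -0.129 and -0.147, and each control sample lay within 0.017 of their common mean. PCNA, the sliding clamp, stood at 413 and 425 CPM in control and at 379, 372, 375 and 370 CPM in MCF10A-TRAM2 (-0.16, adjusted p = 0.164). MCM4, a helicase subunit, stood at 505 and 516 CPM in control and at 477, 466, 484 and 477 CPM in MCF10A-TRAM2 (-0.099, adjusted p = 0.377). CDC6, which loads the helicase, stood at 136 and 141 CPM in control and at 121, 115, 115 and 120 CPM in MCF10A-TRAM2 (-0.23, adjusted p = 0.0866). These 3 genes were lower in every library. Of 30 G2/M genes, which act in mitosis, 29 were tested, none was called, and the median was 0.004 (-0.08 in run 1 and 0.10 in run 2). In run 1, 28 of the 29 were below 0, and in run 2, 27 were above 0. The list's mean in library B stood at -0.202 where A, C and D stood at 0.013, 0.11 and 0.099. Of 20 p53 target genes, none called, 18 were above 0 in run 1 and 18 below 0 in run 2. Signs shared by most members of a list thus also reversed between the runs.

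Ribosome biogenesis genes encode nucleolar factors and RNA polymerase I subunits that make and fold ribosomal RNA, and many are known targets of MYC. All 24 were tested, and all 24 had a log2 fold change below 0, against 50.8% of all genes. At an unadjusted p under 0.05, 14 were lower and 0 were higher, where 6.77% and 5.93% of all genes were, and 18 were below both control samples in all 4 libraries, where 12.4% of all genes were. The median was -0.17 (-0.19 in run 1 and -0.13 in run 2), and the list's mean was -0.08, -0.301, -0.106 and -0.15 in A to D, lowest in B. Without B and the run term the median was -0.12. NCL (nucleolin) stood at 3165 and 3241 CPM in control and at 3121, 2460, 2946 and 2782 CPM in MCF10A-TRAM2 (-0.18, adjusted p = 0.434), and NPM1 (nucleophosmin) at 3671 and 3739 CPM in control and at 3506, 3241, 3660 and 3665 CPM (-0.08, adjusted p = 0.59). RRP12 and RRP9, processing factors of the small subunit, had log2 fold changes of -0.20 and -0.26. The 46 cytosolic ribosomal protein genes had a median of -0.01, and MYC stood at 177 and 180 CPM in control and at 176, 167, 176 and 175 CPM in MCF10A-TRAM2 (-0.04, adjusted p = 0.751). CCND1 (cyclin D1) stood at 484 and 482 CPM against 414 to 447 CPM (-0.15, adjusted p = 0.194).

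The promoters of both lists were searched for letters. RefSeq promoters (GRCh38.p14, 250 bases before to 50 after a start) were matched by symbol for 25 of the 30 S phase genes and 19 of the 24 ribosome biogenesis genes. E2F-type letters (TTTGGCGC, TTTCCCGC, TTTCGCGC or TTTGCCGC on either strand) were present in 16 of the 25 S phase genes (64.0%) and 1 of the 19 ribosome biogenesis genes (5.3%), against 6.7% of the 10181 tested genes with a promoter and 3.3% of all 35116 promoters. The palindrome CACGTG, the core of the E-box that MYC and related factors can bind, was present in 10 of the 19 ribosome biogenesis genes (52.6%) and 3 of the 25 S phase genes (12%), against 12.5% of the tested genes and 7.3% of all promoters. In the 250 bases before the start alone, E2F-type letters were in 11 of the 25 S phase genes (44%), against 5.7% of the tested genes. There CACGTG was in only 3 of the 19 ribosome biogenesis genes (15.8%), against 11.1% of the tested genes, so that its higher share rested on matches that need the 50 bases after the start. The matches describe the letters, with no measurement of binding. The 250 bases before the start are shown for the 3 S phase genes with the smallest p that hold E2F-type letters there, 5' to 3' on the gene's own strand (minus for all 3), with those letters in capitals, at chr16:85688955-85689204, chr20:5126623-5126872 and chr20:33686386-33686635.
GINS2: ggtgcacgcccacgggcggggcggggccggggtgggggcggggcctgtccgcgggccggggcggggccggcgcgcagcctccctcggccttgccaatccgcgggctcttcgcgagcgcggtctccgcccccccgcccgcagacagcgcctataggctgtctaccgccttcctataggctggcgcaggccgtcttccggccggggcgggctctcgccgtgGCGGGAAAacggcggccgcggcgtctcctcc
PCNA: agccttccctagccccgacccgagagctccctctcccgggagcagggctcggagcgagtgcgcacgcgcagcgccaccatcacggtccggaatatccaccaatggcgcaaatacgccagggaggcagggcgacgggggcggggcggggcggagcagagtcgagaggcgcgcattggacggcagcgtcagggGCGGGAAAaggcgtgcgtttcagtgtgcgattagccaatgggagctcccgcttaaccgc
E2F1: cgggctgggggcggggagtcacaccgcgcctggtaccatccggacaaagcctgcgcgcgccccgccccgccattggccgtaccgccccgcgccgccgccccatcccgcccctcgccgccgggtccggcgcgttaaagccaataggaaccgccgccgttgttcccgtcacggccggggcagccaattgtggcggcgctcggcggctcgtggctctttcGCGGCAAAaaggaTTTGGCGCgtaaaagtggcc

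GINS2, a subunit of the replicative helicase, had a log2 fold change of -0.26 and E2F1, the factor itself, of -0.34, both without a call. For the ribosome biogenesis genes, 30 bases around the first CACGTG (in capitals) are shown for the 4 members with the smallest p that hold it: RRP9 at chr3:51941892-51941921 and on the minus strand, and UTP20 at chr12:101280083-101280112, MRTO4 at chr1:19251807-19251836 and DDX21 at chr10:68956604-68956633 on the plus strand.
RRP9: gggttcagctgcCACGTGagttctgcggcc
UTP20: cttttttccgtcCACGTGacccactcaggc
MRTO4: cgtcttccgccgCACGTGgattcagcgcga
DDX21: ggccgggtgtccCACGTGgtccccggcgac

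**Figure D3:**
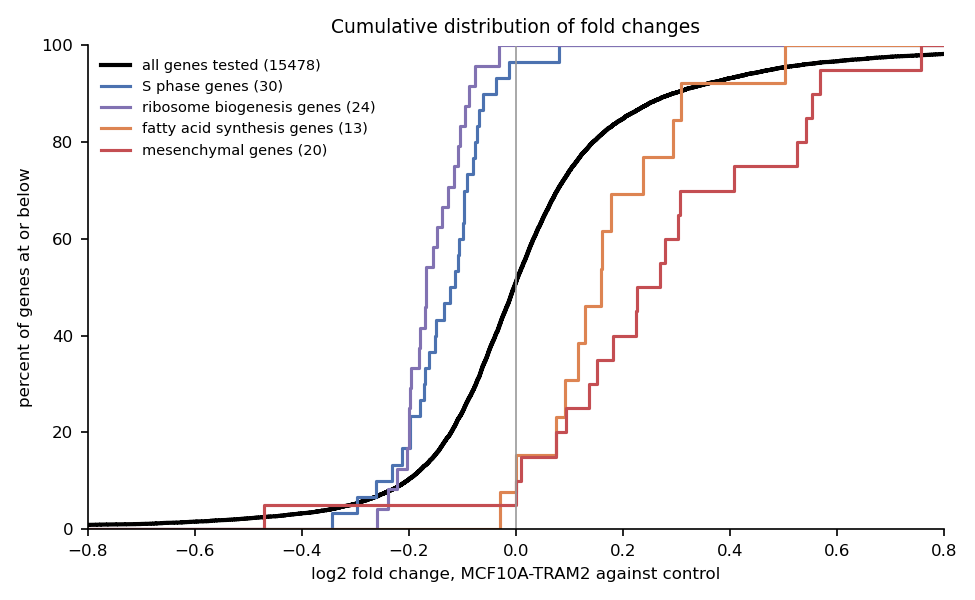
Cumulative percent of genes (y axis) at or below a log2 fold change of MCF10A-TRAM2 against control (x axis) for all 15478 genes tested (black), 30 S phase genes, 24 ribosome biogenesis genes, 13 fatty acid synthesis genes and 20 mesenchymal genes. The curves of S phase and ribosome biogenesis genes lie left of all genes over most of their range, with medians of -0.12 and -0.17, and those of fatty acid synthesis and mesenchymal genes right of it, with medians of 0.16 and 0.25.

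Fatty acid synthesis genes, most of them targets of the sterol-regulated factor SREBP-1, were shifted upward to a like extent in both runs. All 13 were tested, and none was called. At an unadjusted p under 0.05, 8 were higher and 0 were lower, where 5.93% and 6.77% of all genes were, and 7 were above both control samples in all 4 libraries, where 10.7% of all genes were. The median was 0.16 (0.14 in each run), and the list's mean was 0.14, 0.177, 0.16 and 0.202 in MCF10A-TRAM2 A to D. SCD, the desaturase that makes oleate, stood at 295 and 294 CPM in control and at 346, 371, 343 and 383 CPM in MCF10A-TRAM2 (log2 fold change 0.29, adjusted p = 0.0802). FASN, fatty acid synthase, stood at 232 and 224 CPM in control and at 239, 234, 263 and 289 CPM (0.16, adjusted p = 0.223), and ACLY, which makes cytosolic acetyl-CoA, at 270 and 272 CPM in control and 263 to 284 CPM (0.00). SCD and FASN were thus above control in every library, while ACLY spanned it. Of 24 cholesterol synthesis genes 23 were tested, none was called, and the median was 0.09 (0.09 and 0.05 in the runs).

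**Figure D4:**
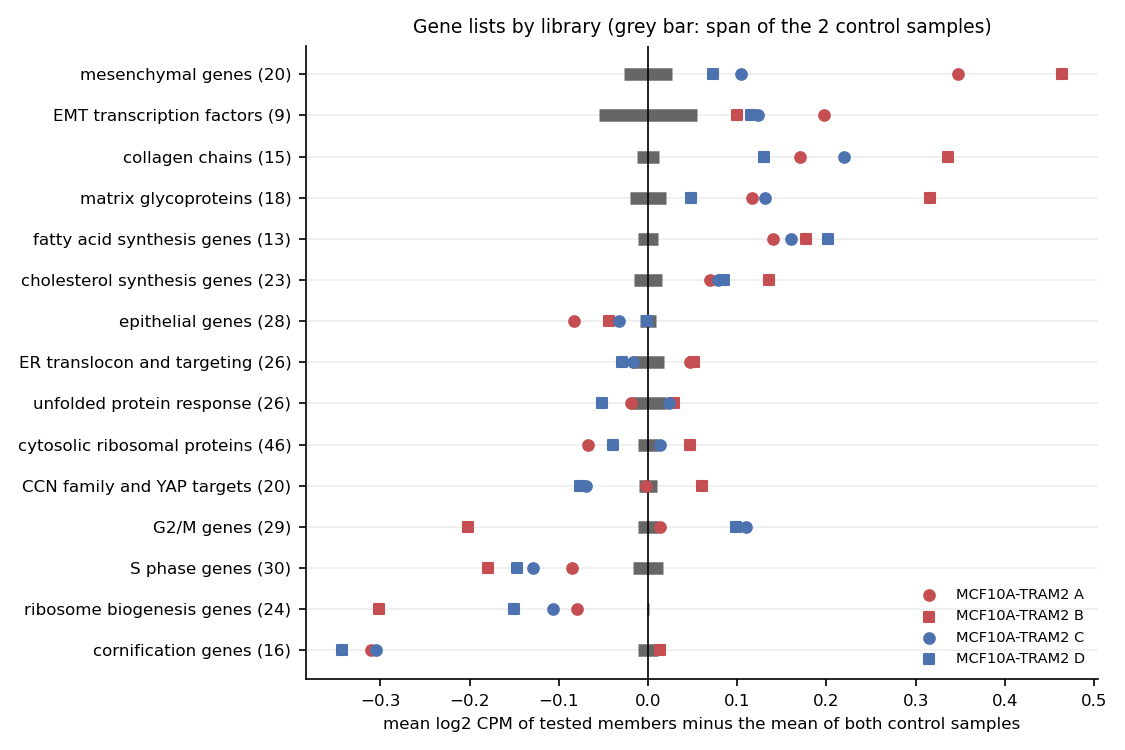
Mean log2 CPM of the tested members of 15 gene lists in each MCF10A-TRAM2 library (red A and B of run 1, blue C and D of run 2), minus the mean of both control samples (x axis), with the number of members in brackets and a grey bar for the span of the 2 control samples. All 4 libraries lie below the bar for S phase and ribosome biogenesis genes. They lie above it for mesenchymal genes, EMT transcription factors, collagen chains, matrix glycoproteins, and fatty acid and cholesterol synthesis genes. G2/M and cornification genes split with library B.

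The lists of the ER and the secretory route, where the protein itself works, held no called gene. The 26 genes of the translocon and of targeting to it had a median of 0.016 with none called, the 12 oligosaccharyltransferase genes one of 0.004, and 26 tested of 27 unfolded protein response genes one of -0.004. HSP90B1 and CALR, ER chaperones that rise when folding is strained, had log2 fold changes of 0.06 and -0.01. The 22 genes of procollagen export and the secretory coat had a median of 0.05 (0.11 in run 1 and 0.03 in run 2) with none called. Of these, 18 were above 0, as were 7565 of all 15478 genes. At an unadjusted p under 0.05, 4 were higher and 0 lower, where 5.93% and 6.77% of all genes were. In all 4 libraries 9 were above both control samples, where 10.7% of all genes were. The smallest p belonged to MIA2, an ER exit site protein, at 50.6 and 51.0 CPM in control and 61.1, 63.0, 54.9 and 60.3 CPM in MCF10A-TRAM2 (0.23, adjusted p = 0.124). FSTL1, a secreted glycoprotein, stood at 165 and 157 CPM in control and at 168, 207, 182 and 168 CPM in MCF10A-TRAM2 (log2 fold change 0.17, 95% interval -0.024 to 0.365, adjusted p = 0.443). P3H1, a collagen prolyl 3-hydroxylase of the ER, stood at 11.5 and 13.2 CPM in control and at 13.6, 16.1, 13.6 and 12.8 CPM (0.19, 95% interval -0.043 to 0.423, adjusted p = 0.479). Neither interval excludes 0. Of 22 CCN family and YAP target genes 20 were tested, none was called, and the median was -0.03. TMEM158, KIF18A and SLC39A1 were not called either, at log2 fold changes of 0.47, 0.11 and -0.065 (adjusted p = 0.632, 0.53 and 0.753).

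Over all genes tested, 0.142% rose and 0.084% fell, and 5.93% were higher and 6.77% lower at an unadjusted p under 0.05. Of 24 redox and aldo-keto reductase genes 23 were tested, AKR1C1 rose, and 8 were higher and 0 lower at that unadjusted cutoff. NQO1, a direct target of the redox factor NRF2, had a log2 fold change of -0.09. Of 21 retinoid genes 13 were tested, ALDH1A3 fell, and 6 were higher and 1 lower at the unadjusted cutoff. Among the 6 were DHRS9, a retinol dehydrogenase (0.74, adjusted p = 0.0802), and CRABP2, a retinoic acid carrier (0.43). Of 20 secreted defence proteins 9 were tested and LCN2 fell, while the median was 0.454 (0.593 in run 1 and 0.019 in run 2). At the unadjusted cutoff 3 were higher, and LCN2 was the 1 lower. S100A9 was at 0.66 on the log2 scale, not called (adjusted p = 0.18), and C3 at -0.05. NF-kB and inflammatory genes had a median of -0.145 (-0.02 in run 1 and -0.26 in run 2) and interferon-stimulated genes one of -0.07, neither with a call. Nuclear subunits of oxidative phosphorylation (-0.01), glycolysis and hypoxia genes (-0.01), keratins (0.03) and TGF-beta and BMP genes (0.01) had medians near 0 and no calls.

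Markers of endothelial and packaging cells, and most markers of fibroblasts and leukocytes, were low in both groups, while luminal mammary markers were not. Fibroblast markers summed to 75.8 to 78.7 CPM in control and 83.9 to 102 CPM in MCF10A-TRAM2, with 3 of 10 tested, PDGFRA and LUM at 0 in all 8 libraries and 6 of 10 under 10 counts over all 8. Of that list FAP carried the most counts, at 70.2 and 73.6 CPM in control and 77.6 to 94.1 CPM in MCF10A-TRAM2, with a log2 fold change of 0.23. Leukocyte markers summed to 55.2 CPM in each control sample and 49.4 to 65.0 CPM in MCF10A-TRAM2, with 5 of 10 at 0 everywhere. Endothelial markers summed to 10.0 to 11.1 CPM in control and 12.2 to 18.4 CPM in MCF10A-TRAM2, with VWF and CLDN5 at 0. Of these PECAM1 stood at 7.8 CPM in both control samples and at 9.3, 10.8, 11.6 and 14.2 CPM in MCF10A-TRAM2 (log2 fold change 0.54, adjusted p = 0.11). Luminal mammary markers summed to 287 to 291 CPM in control and 300 to 320 CPM in MCF10A-TRAM2. MUC1 held most of this, at 197 and 199 CPM in control and 205 to 217 CPM in MCF10A-TRAM2 (0.10, adjusted p = 0.384). Markers of packaging cells summed to under 1 CPM in each sample with 6 of 8 at 0. The part of other cells in the rises of matrix genes was not tested.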

How the data were processed

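mRNA of cultured cells was sequenced after poly(A) selection (Trizol, Oligotex, TruSeq kit per the labels). The authors trimmed reads with cutadapt, and the estimated counts (NumReads) and TPM of 226030 transcripts that they deposited for each library come from Salmon. The study's methods name a stranded TruSeq kit, but neither the versions of these tools, the transcript build nor the strand setting of Salmon. TPM was not analysed. Estimated counts were summed per gene (60168 genes) and rounded. Control A and C, and B and D, were summed, and genes passing filterByExpr were scaled by TMM and fitted with edgeR 4.0.16 (quasi-likelihood, robust, in R 4.3.3) with group and sequencing run as terms on 6 samples (3 residual degrees of freedom). The deposited file names give the run. The run term was coded -0.5 and 0.5 in MCF10A-TRAM2 and 0 in the summed controls, so that the MCF10A-TRAM2 libraries alone set it. The design text speaks of 3 biological replicates per condition where the labels give 4 libraries.

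P-values are two-sided and adjusted by Benjamini-Hochberg across all 15478 tested genes, and a gene is called, rising or falling, at an adjusted p under 0.05. Values per run are differences of mean log2 CPM (prior count 2) between the libraries of that run, and the runs share control libraries. Intervals are 95%. Chi-square tests of library pairs used genes with a mean count of at least 50 and counts within 0.001 of a whole number.

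The comparison and the 45 gene lists were chosen with earlier results of these data known. Named are TRAM2, ALDH1A3, LCN2, genes the study names, the 15 largest rises and falls among called coding genes of at least 5 CPM without overlap, and, from a list, its called members (4 at most) or else the 2 most abundant. All other genes named were chosen after their values were seen. Positions are GENCODE annotation on GRCh37 by Ensembl identifier, and promoters are RefSeq on GRCh38.p14. Alternatives were other models of run and controls, DESeq2 1.42.0, RLE scaling, no filter, no robust option, each run alone and leaving out each sample.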

Additional observations from a re-analysis of the deposited data

Results flagged for a closer look

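Of 111 named genes, 3 had 1 MCF10A-TRAM2 library far from the other 3 by Dixon's test, which chance gives in about 1 group in 20. MYC stood at 167 CPM in B and at 175 to 176 CPM in A, C and D. SNAI2, an EMT transcription factor, stood at 166 CPM in B and at 131 to 136 CPM in the others, and ITGA6, the integrin alpha 6 chain of hemidesmosomes, at 651 CPM in C and at 604 to 610 CPM in the others.

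The MCF10A-TRAM2 libraries differed between the runs, by the run term of the edgeR model, for 3 genes. Run 2 minus run 1 was -0.69 on the log2 scale for FN1 (adjusted p = 0.000873), 0.72 for KLK10 (adjusted p = 0.0121) and -0.94 for IVL (adjusted p = 0.0103). Each run holds 2 MCF10A-TRAM2 libraries. In the 4 single control libraries FN1 stood between 351 and 363 CPM, KLK10 between 89.1 and 100 CPM and IVL between 21.2 and 23.0 CPM, with no split by run.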

How the results depend on the processing

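The count of genes called, 35 (22 higher), depended on the model. It was 8 without the run term, 386 with all 8 control and MCF10A-TRAM2 libraries kept and run as a factor, 377 with the replicate block (letters A to D), 93 with MCF10A-YAP5SA in the fit, 66 with DESeq2, 36 with RLE scaling, 20 without the robust option, and 17 and 490 with the libraries of run 1 or run 2 alone. Fits on 8 libraries count each control library as a separate sample. Without a filter on low counts it was 697, of which 39.7% were higher, against 62.9%. Leaving out 1 sample gave 2 to 1852 genes, and leaving out 1 MCF10A-TRAM2 library and the run term, an alternative added after seeing the data, 5 to 106. Deviations of same-lettered libraries had correlations of 0, 0.03, 0.02 and 0.02. The control libraries differ from each other by little more than sampling noise, so these correlations cannot tell whether the letters pair cultures.

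The run term was called for 3 genes, and for 16 with MCF10A-YAP5SA, 25 with DESeq2, 271 without the filter, 1 without the robust option and 0 to 981 leaving out 1 sample. TRAM2 was above control in all 20 alternatives and passed the threshold with run as a factor on 8 libraries (3.90), the replicate block (3.85), DESeq2 (3.89) and without the robust option (3.88). AC022968.1 reversed to 0.10 with run 2 alone. The cause of these shifts was not tested, apart from the run term resting on 1 library where A, B, C or D is left out. Of the other values of named genes, 1818 kept their side of the threshold, 298 lost it and 99 gained it. The median of S phase genes stayed between -0.157 and -0.105, of ribosome biogenesis genes between -0.214 and -0.099 and of fatty acid synthesis genes between 0.127 and 0.19, and that of mesenchymal genes between 0.117 and 0.368.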
